A study of Mus musculus with 5 samples.

Results

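The 31 genes described here are a set of insulin, mTOR and energy metabolism genes, chosen by name: hormones and their receptors, the kinases and adaptors that carry the insulin signal, transcription factors of fuel use, and enzymes and transporters of glucose and fat. All 31 were found among 34610 protein-coding and lncRNA genes of mouse chromosomes 1 to 19, X and Y in RefSeq (GRCm38, mm10). Their DNA methylation was read in whole-genome bisulfite sequencing of sperm that swam out of the cauda epididymis of C57BL/6 mice. There were 3 libraries from mice 2 months old (young replicates 1 to 3) and 2 from mice 18 months old (old replicates 1 and 2), with no other treatment named. The labels do not say whether a library was 1 animal, so every p-value measures only the spread between these libraries.

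Insulin and the insulin-like growth factors bind receptor tyrosine kinases, which act through the Irs adaptors, phosphoinositide 3-kinase and Akt to promote glucose uptake, growth through mTOR and the exclusion of Foxo1 from the nucleus. Methylation of cytosine in CpG pairs is high over most of the sperm genome and low at many CpG-rich starts of genes. Methylation is given as the percent of reads at CpGs that were read as C.

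5 promoters show what the letters of these starts look like on either side of that divide. Each run is 300 bases of RefSeq GRCm38.p6, from 250 before to 50 after a listed start, written 5′ to 3′ on the strand of the gene, with every CG pair in capitals. CG reads the same on both strands, and 94.6% of all 32851 listed promoters hold at least 1. Only Akt1 (second start) and Pparg (first start) held at least 3 CpGs with 5 or more reads in all libraries. The other 3 were chosen after their values were seen, as contrasts.
Akt1, start 2, minus strand, chr12:112674227-112674526: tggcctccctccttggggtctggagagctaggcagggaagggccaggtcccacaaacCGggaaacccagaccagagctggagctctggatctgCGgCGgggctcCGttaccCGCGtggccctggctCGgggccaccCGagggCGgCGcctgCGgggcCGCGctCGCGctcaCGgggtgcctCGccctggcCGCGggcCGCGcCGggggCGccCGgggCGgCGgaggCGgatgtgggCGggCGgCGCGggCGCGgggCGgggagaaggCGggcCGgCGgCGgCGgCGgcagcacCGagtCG
Pparg, start 1, plus strand, chr6:115360894-115361193: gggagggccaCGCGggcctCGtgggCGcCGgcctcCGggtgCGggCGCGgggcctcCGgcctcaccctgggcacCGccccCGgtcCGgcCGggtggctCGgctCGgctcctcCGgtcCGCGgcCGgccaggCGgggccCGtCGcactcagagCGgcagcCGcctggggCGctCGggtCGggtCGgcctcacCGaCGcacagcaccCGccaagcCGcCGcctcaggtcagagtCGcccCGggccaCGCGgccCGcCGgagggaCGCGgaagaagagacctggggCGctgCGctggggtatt
Pparg, start 3, plus strand, chr6:115421816-115422115: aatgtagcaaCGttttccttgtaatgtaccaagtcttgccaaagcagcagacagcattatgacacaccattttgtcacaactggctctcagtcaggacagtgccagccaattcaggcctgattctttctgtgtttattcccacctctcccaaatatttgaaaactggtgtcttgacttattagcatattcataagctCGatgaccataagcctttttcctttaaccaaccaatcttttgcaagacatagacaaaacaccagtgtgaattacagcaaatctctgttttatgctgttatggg
Akt2, start 1, plus strand, chr7:27591302-27591601: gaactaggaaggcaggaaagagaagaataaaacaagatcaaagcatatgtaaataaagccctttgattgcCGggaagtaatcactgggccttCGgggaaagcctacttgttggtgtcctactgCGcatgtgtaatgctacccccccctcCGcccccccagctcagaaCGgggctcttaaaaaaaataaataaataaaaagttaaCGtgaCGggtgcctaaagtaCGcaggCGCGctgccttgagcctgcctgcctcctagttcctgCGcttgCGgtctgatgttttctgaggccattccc
Slc2a2, plus strand, chr3:28697653-28697952: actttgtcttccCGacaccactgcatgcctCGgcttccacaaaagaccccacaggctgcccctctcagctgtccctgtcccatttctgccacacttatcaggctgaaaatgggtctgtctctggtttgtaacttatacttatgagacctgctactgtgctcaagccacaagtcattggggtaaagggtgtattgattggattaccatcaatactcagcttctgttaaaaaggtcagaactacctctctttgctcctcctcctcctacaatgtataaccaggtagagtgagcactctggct
The first Pparg run holds 44 CpGs, and 5 of 516 reads over them were methylated (0.969%). The third Pparg run holds 2 CpGs, with 17 of 22 reads methylated. In the Akt2 run, with 12 CpGs, 2 of 174 reads were methylated, and in the Slc2a2 run, with 2 CpGs, 11 of 11 were. The Akt1 run is as dense as the first Pparg run, with 42 CpGs, but 426 of 990 reads over it were methylated (43.0%).

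How much of each gene could be compared was set by coverage. Coverage summed over listed cytosines ran from 67774094 to 97769462 per library. A read counts once in this sum for each listed cytosine it covers, and read counts over genes, starts and tiles are sums of the same kind. Of the 13063725 listed CpGs, 17.2% reached 5 reads in each of the 5 libraries while staying under an upper coverage limit. The members held 1843 of these common CpGs among 16003 listed. With at least 3 common CpGs required, 20 gene regions (the span with 1 kb on either side) were measured. The 11 others were Ins1, Ins2, Igf2, Igfbp1, Igfbp3, Slc2a4, Pck1, Lep, Adipoq, Srebf1 and Fasn, and 6 of them had no common CpG. Their spans had a median of 9.41 kb (0.719 to 25.1 kb) against 75.4 kb (5.75 to 662 kb) for the measured genes, so the lengths overlapped. Of the 719 CpGs in the 41 listed promoter sequences of members, 149 were listed in any library (20.7%) and 19 were common (2.64%). Over all 32851 promoters the shares were 18.2% and 1.17%.

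The libraries did not stand alike before age was considered. Young replicate 3 was the lowest library in 9 of the 15 member regions with a mean over 80%, and in 47.6% of 20003 such regions of all genes. Young replicate 2 was the highest in 6 of the 15, and in 8566 of the 20003.

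No member region, start window, gene body or 1 kb tile passed the test between the ages (quasi-binomial model of methylated and unmethylated reads with dispersion moderated as in limma, with a difference of 10 points or more and an adjusted p under 0.05 over the whole genome). The share of all features called was 0% as well, for 23794 gene regions, 4968 start windows, 17070 gene bodies and 320580 tiles. The smallest adjusted p was 1 in each of the 4 kinds. At an unadjusted p under 0.05 there were 440 regions, 122 start windows, 258 bodies and 11007 tiles, among them 0 member regions, 0 member starts, 0 member bodies and 7 member tiles. limma on the log2 odds also called 0, with 850, 178, 582 and 13724 at an unadjusted p under 0.05 and 1, 0, 0 and 11 among members. Of the 20 member regions 15 had a higher mean in old sperm and 5 a lower one, with a median difference of 0.651 points (range -1.59 to 10.97). The median over all 23794 regions was 0.105 points. Without young replicate 3 the split was 11 and 9 and the member median 0.162 points, while the median of all regions was -0.380. Without old replicate 1 the member median was 0.205 points and the split 12 and 8.

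**Figure D1:**
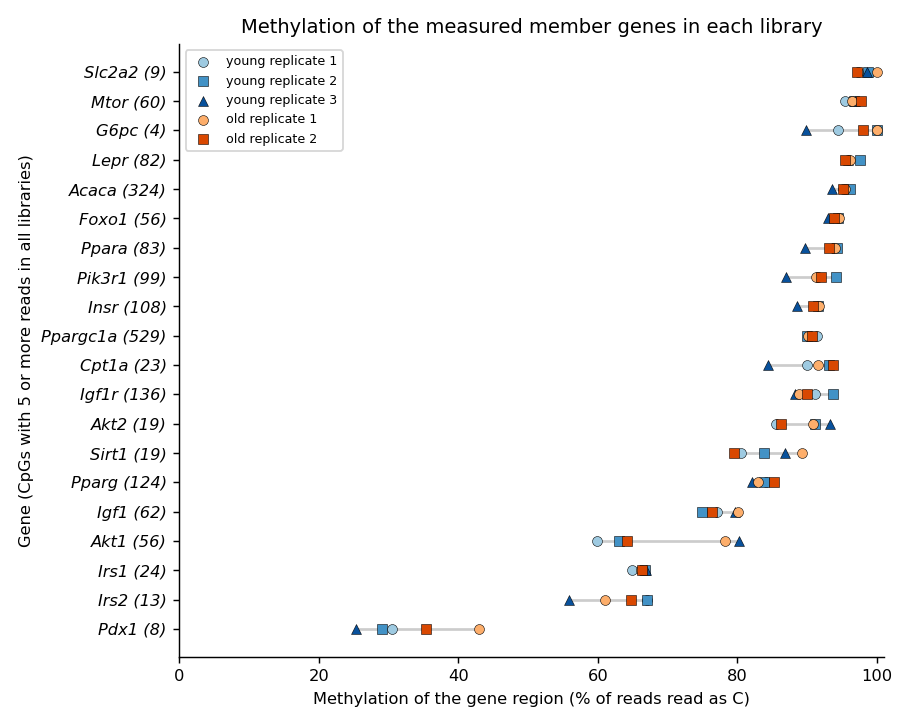
Methylation of each of the 20 measured member regions (x axis, percent of reads read as C) in the 3 young (blue) and 2 old (orange) libraries, with the number of common CpGs after each gene. Most genes lie above 80%, Pdx1 lies lowest at 25.3 to 43.0%, and Akt1 is spread from 59.9 to 80.2% with young and old libraries mixed.

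Among the ligands, Igf1, the insulin-like growth factor of liver and many tissues, lay at chr10:87858265-87937047. Its region was 77.1%, 74.9% and 79.7% methylated in young replicates 1 to 3 and 80.2% and 76.3% methylated in old replicates 1 and 2. The ages overlapped, with means of 77.2% and 78.2%. The insulin genes Ins1 and Ins2 could be described only from every listed CpG, which differ between libraries. Pooled over libraries, 93.4% of 181 reads over Ins1 and 93.5% of 31 reads over Ins2 were methylated. The 95% Wilson intervals were 88.8 to 96.2% and 79.3 to 98.2%. They cover counting error only and take each count as independent, so they are too narrow where 1 read spans several CpGs. Igf2, the imprinted fetal growth factor, was at 46.8% of 654 reads, from 34.2% in young replicate 1 to 73.7% in young replicate 3. Among the binding proteins that hold these factors in blood, Igfbp1 was at 46.8% of 500 reads and Igfbp3 at 42.8% of 1234.

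The receptor regions were highly methylated at their common CpGs. Insr, the insulin receptor, was at 91.6%, 91.6% and 88.5% in young and 91.7% and 90.9% in old sperm. Its 2 ends differed sharply. Around the end at 3279649 of chromosome 8, 4 of 116 reads were methylated (3.45%), and around the end at 3150922, 117 of 125 (93.6%). No start was listed for Insr in the promoter table, so neither end is called the start here. Igf1r, the receptor of Igf1, was at 91.1%, 93.7% and 88.3% in young and 88.9% and 89.99% in old sperm. Its difference of -1.59 points was the lowest of the 20, and it was -0.260 without young replicate 2, -2.97 without young replicate 3 and 0.0033 with every CpG a library lists. Over its start 7 of 401 reads were methylated (1.75%). Lepr, the leptin receptor, was at 95.8%, 97.6% and 95.9% in young and 96.1% and 95.4% in old sperm.

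The adaptors Irs1 and Irs2, which receptors phosphorylate to recruit phosphoinositide 3-kinase, had lower means over the libraries than every measured member but Pdx1. Akt1, next above them, lay below both in young replicates 1 and 2 and in old replicate 2. The Irs1 region was at 65.0%, 66.8% and 66.9% in young and 66.2% and 66.4% in old sperm, a difference of 0.086 points. That near-equality rests on 24 CpGs, and with at least 10 reads in all libraries the difference was -7.08 points. Irs2 was at 67.1%, 67.1% and 55.9% in young and 61.0% and 64.7% in old sperm, with young replicate 3 lowest. Pik3r1, the regulatory subunit of the lipid kinase, was at 91.5%, 94.1% and 86.9% in young and 91.3% and 91.9% in old sperm. Young replicates 3 and 2 mark the lowest and highest values there, and both old libraries lie between them.

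Akt1 and Akt2 encode the kinases at the centre of the pathway. The 56 common CpGs of Akt1 all lie in 1 tile at its 2 listed starts, so its region, its start windows and that tile (chr12:112674001-112675000) are the same measurement. Their level was 59.9%, 63.0% and 80.2% in the young libraries, in order of their number, and 78.3% and 64.2% in the old ones, on 595 to 746 reads per library. Young replicate 3 and old replicate 1 were high, and the ages overlapped. Young libraries had a mean of 67.7% ± 10.9 (SD, n = 3). Old libraries had one of 71.2% ± 9.98 (SD, n = 2), a difference of 3.51 points. It was -3.55 without old replicate 1, 10.6 without old replicate 2, 9.75 without young replicate 3 and -0.391 without young replicate 1. The Akt2 region was at 85.6%, 91.2% and 93.2% in young and 90.9% and 86.3% in old sperm.

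Single CpGs of Akt1 show where its intermediate level comes from. Pooled over libraries, 1 of 37 reads was methylated from 0 to 449 bp downstream of the first listed start (2.70%) and 15 of 237 from 450 to 549 bp (6.33%). It was then 39.7% at 550 to 599 bp, 56.8% at 600 to 649 bp and 79.5% at 700 to 799 bp. Beyond 800 bp it was 64.1%, then 26.9% at 850 to 899 bp and 11.1% at 900 to 1000 bp. In the pooled reads a methylated peak stood inside a CpG-dense stretch with low levels on both sides, but not every library covered both sides. Young replicates 2 and 3 had no listed reads at 0 to 449 bp, and young replicates 1 and 3 had none at 450 to 549 bp. There old replicate 2 was at 40% of 20 reads. Old replicate 1 had none at 900 to 1000 bp. The Akt1 run printed above covers the upstream flank. The libraries differed most on the upstream flank of the peak, at 600 to 649 bp. Values there were 17.9%, 72.2% and 76.2% in young and 76.4% and 45.6% in old sperm. Each library had 72 to 84 reads there, summed over 11 CpGs. At the crest, 700 to 799 bp, they lay between 70.2% and 85.9%.

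**Figure D2:**
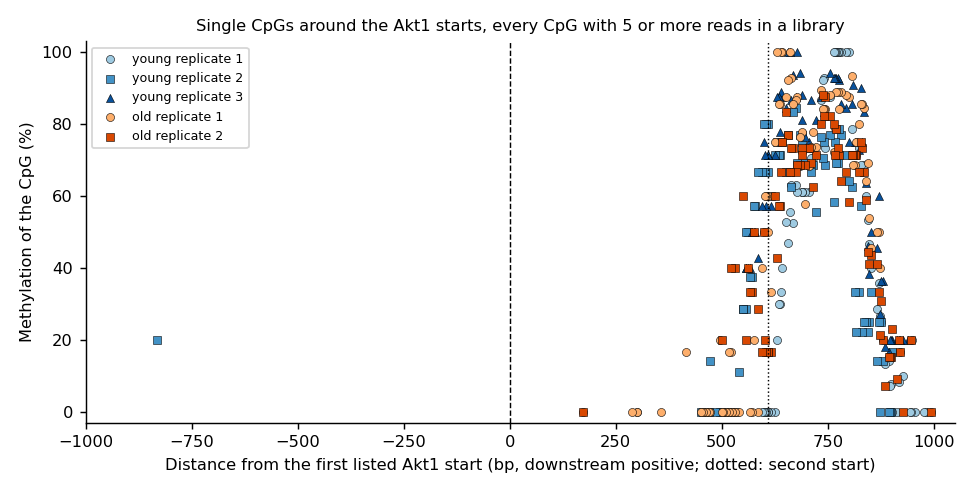
Methylation of single CpGs (y axis, percent) against their distance from the first listed Akt1 start (x axis, bp), for each library in which the CpG had at least 5 reads; the dotted line is the second start. CpGs at 700 to 799 bp pool to 79.5%, and those at 900 to 1000 bp to 11.1%.

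Mtor, the kinase that couples nutrients to growth, and Foxo1, the forkhead factor that Akt restrains, were methylated over their bodies and not at their starts. The Mtor region was at 95.4%, 96.8% and 96.9% in young and 96.4% and 97.7% in old sperm, while 6 of 190 reads over its start were methylated (3.16%). The Foxo1 region was at 94.4%, 94.4% and 92.9% in young and 94.5% and 93.9% in old sperm, and 1 of 162 reads over its start (0.617%) was methylated. In both genes the ages overlapped.

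Pdx1, the homeobox factor of pancreas and beta cells that drives insulin expression, had the lowest level and the largest difference of the 20 regions (chr5:147270097-147275848). Its level was 30.4%, 29.0% and 25.3% in the young libraries and 43.0% and 35.4% in the old ones, on 86 to 166 reads. Both old libraries lay above all 3 young ones. Group means were 28.2% ± 2.65 (SD, n = 3) and 39.2% ± 5.39 (SD, n = 2), a difference of 10.97 points (adjusted p = 1 in the model with limma-type moderation). It was the only member region whose ages did not overlap, against 7.65% of all regions with old sperm higher and 6.59% with old sperm lower. The value rests on 8 CpGs in 2 groups. Those at 1657 to 1929 bp downstream of the start were at 20%, 16.0% and 18.9% in young and 31.1% and 21.2% in old sperm. Those at 3364 to 3510 bp were at 63.6%, 84.2% and 65.2% in young and 72.0% and 78.6% in old sperm, where the ages overlapped. Young replicate 3 had 143 of its 166 reads in the first, less methylated group. With each CpG weighted equally, a setting added after seeing the data, the difference was 6.16 points. Without old replicate 1 it was 7.15, and without old replicate 2 it was 14.8.

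**Figure D3:**
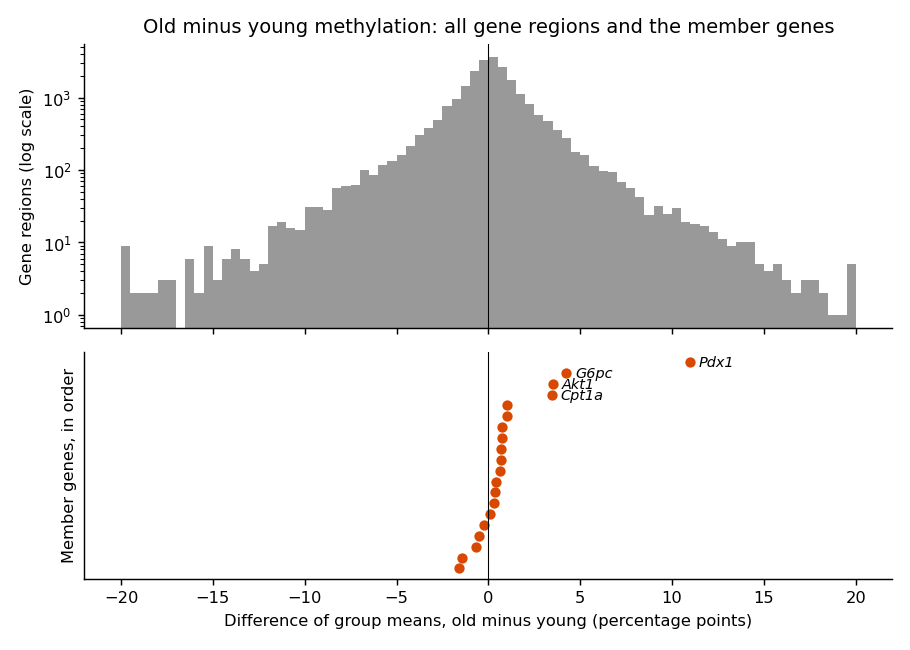
Upper panel: number of gene regions (log scale) by difference of group means, old minus young, in percentage points, for all 23794 regions; the outermost bars also hold regions beyond 20 points. Lower panel: the 20 member regions in order, with Pdx1 at 10.97 points and Igf1r lowest at -1.59.

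Of the nuclear receptors of fuel use, Ppara, which drives fatty acid oxidation genes, was at 93.7%, 94.2% and 89.7% in young and 94.0% and 93.1% in old sperm. Pparg, the master factor of fat cells (chr6:115360879-115490404), was at 84.2%, 83.8% and 82.0% in young and 83.0% and 85.2% in old sperm. Its level is a mix of a body at 93.2 to 95.03% and a first start at 9.77 to 16.8%. That start window was at 13.7%, 9.77% and 16.8% in young and 11.8% and 13.9% in old sperm, a difference of -0.579 points. It was 1.11 without young replicate 3, 0.436 without old replicate 1, -1.59 without old replicate 2 and -2.41 without young replicate 2. Within it, 5 CpGs between -950 and -612 bp of the start (negative is upstream) were at 46.8%, 30.8% and 55.2% in young and 53.7% and 38.0% in old sperm. The 15 CpGs between -340 and -222 bp, which reach into the first Pparg run printed above, were at 0.637 to 2.01% in all libraries. The edge between a partly methylated and an unmethylated stretch thus fell between these groups, and it did so in each library.

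Ppargc1a encodes the coactivator of mitochondrial biogenesis and (chr5:51454249-52115853) held 529 of the 1843 common CpGs. Its region was at 91.4%, 90.03% and 90.5% in young and 90.1% and 90.7% in old sperm, the narrowest range among the 20 regions at 1.41 points. Sirt1, the NAD-dependent deacetylase that acts on it, was at 80.6%, 83.8% and 86.8% in young and 89.2% and 79.5% in old sperm. The Sirt1 difference of 0.614 points became -17.9 when every CpG a library lists was used, and libraries then cover different CpGs. At the Sirt1 start, for example, old replicate 2 had 267 reads and young replicate 3 had 18. Without old replicate 1 the Sirt1 difference was -4.27 points, and without old replicate 2 it was 5.49.

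The measured regions of transporters and enzymes were highly methylated at their common CpGs. Slc2a2, the glucose transporter of liver and beta cells, was at 97.3%, 98.8% and 98.6% in young and 100% and 97.2% in old sperm. G6pc, the last enzyme of glucose release, was at 94.4%, 100% and 89.8% in young and 100% and 98.0% in old sperm on 4 CpGs, a difference of 4.22 points that was 1.76 without young replicate 3 and 6.84 without young replicate 2. Acaca, the first committed enzyme of fatty acid synthesis, was at 95.1%, 96.1% and 93.6% in young and 95.5% and 95.2% in old sperm over 324 CpGs. Cpt1a, which brings fatty acids into mitochondria for oxidation, was at 89.9%, 93.1% and 84.4% in young and 91.5% and 93.7% in old sperm. Its difference of 3.44 points was 1.08 without young replicate 3, the lowest library. Genes with too few common CpGs were read over every listed CpG: the adipose hormones Lep and Adipoq were at 90.1% of 1039 and 84.0% of 729 reads, Pck1 of glucose synthesis at 83.7% of 774, and the lipogenic genes Srebf1 and Fasn at 76.4% of 1326 and 91.0% of 602. For Slc2a4, the insulin-responsive glucose transporter of muscle and fat, a single CpG with 5 reads was listed, all unmethylated, which leaves an upper 95% Wilson bound of 43.4%.

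Start windows (1 kb either side of a listed start) were the most divided feature of the set. Of the 41 listed starts of 28 genes, 4 were measured with the common CpGs, those of Akt1, the first of Pparg and the first of Lepr. The last was at 93.2%, 92.6% and 90.4% in young and 100% and 88.7% in old sperm on 3 CpGs, a difference of 2.31 points that was -3.32 without old replicate 1 and 7.94 without old replicate 2. Pooled over every listed CpG, 14 starts were under 20%, 11 at 20 to 80%, 12 over 80%, and 4 had no reads. Of those with reads the shares were 37.8%, 29.7% and 32.4%, against 30.4%, 30.5% and 39.1% of 31032 starts of all genes. The starts under 20% held a median of 29 CpGs in 300 bases (8 to 48), the intermediate ones 13 (0 to 47) and those over 80% 3 (0 to 18).

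The starts under 20% included those of Irs1, Foxo1, Mtor, Igf1r, Pdx1, Ppara, Igfbp1 and Igfbp3. Irs1 and Ppara were read in 1 old library each, with 25 and 30 reads. Igfbp1 pooled to 11.4% of 210 reads but ranged from 2.97% to 60% between libraries. Over the Cpt1a start 0 of 93 reads were methylated, with an upper 95% Wilson bound of 3.97% that takes each count as independent. The starts over 80% included those of Slc2a2 at 97.3% of 219 reads, G6pc at 90.9% of 77 and Pck1 at 95% of 60. Adipoq at 80.8% of 99 and Acaca at 100% of 55 were in this class too, as were starts of Igf2, Akt2, Lepr and Pparg. Of other genes of liver or fat, the Lep start was at 53% of 100 reads and that of Igf1 at 21.9% of 178. Pck1 was read in 3 libraries. Adipoq ranged from 67.6% in old replicate 2 to 94.7% in young replicate 1, without reads in young replicate 3. The listed Acaca start, 84195438, lies inside the annotated span (chr11:84129635-84401651), and its 300 bases hold 1 CpG. Ppargc1a, whose listed start holds 5 CpGs in 300 bases, was at 94.8% of 305 reads.

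Starts of the same gene could differ widely. At the first start of Pparg 185 of 1682 pooled reads were methylated, at the second 104 of 202 and at the third 299 of 341. Over the libraries the first lay at 10.2 to 14.4% and the third at 81.4 to 93.7%. The first start of Akt2 was at 5.06% of 356 reads, its second at 92.9% of 42 and the third at 83.0% of 47. Pik3r1 had 1.69% of 178 reads methylated at its first start and 76.9% of 321 at the second. In Srebf1 the third start was at 2.53% of 79 reads and the first at 60.9% of 133. Igf2 had its first start at 91.7% of 36 reads and its second at 16% of 75, with 3 of the 5 libraries read at each. At the second, young replicate 1 was at 9.38% of 64 reads, old replicate 1 at 33.3% of 6 and old replicate 2 at 80% of 5. Of these genes Pparg and Akt2 had a pooled start under 20% and another over 80%. Igf2 did so as well, but its low start rested mainly on young replicate 1. The higher starts of Pik3r1 and Srebf1 were intermediate.

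Along the genes, 249 tiles of 1 kb were measured in 18 members. Of these 224 were over 80%, 22 at 20 to 80% and 3 under 20%, or 89.96%, 8.84% and 1.20% against 88.0%, 11.2% and 0.731% of all tiles. The 3 low tiles were the Pparg start, a Pdx1 tile 1.404 kb from the start at 12.5 to 21.3%, and an Irs1 tile 7.94 kb downstream of the start (chr1:82283001-82284000) at 0 to 2.50%. Of the 25 tiles not over 80%, 4 lay within 2 kb of a listed start, 19 lay farther away and 2 were in Insr, which has no listed start.

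Ppargc1a held 6 of the 22 intermediate tiles, in 3 places. A block of 3 neighbouring tiles at chr5:51921001-51924000, about 355 kb upstream of the listed start but inside the annotated span, had means of 29.7%, 27.7% and 30.7%. The measured tiles on either side, 51917001 and 51925001, were at 91.7 to 97.6% and 94.0 to 100%. The middle of the 3, with 10 CpGs and 258 to 342 reads, was at 27.7%, 22.9% and 35.9% in young and 21.6% and 30.3% in old sperm, and the ages overlapped. About 94 kb downstream of the start, tiles 51472001 and 51474001 had means of 51.8% and 35.1%, with young replicate 3 highest in both at 68.1% and 64.0%. In Igf1 a dip 53 to 54 kb downstream of the start (chr10:87914001-87916000) reached 30.1% in its second tile, with 34.8%, 15.6% and 40.6% in young and 32.7% and 26.9% in old sperm. Igf1r had its lowest tile at 46.0%, 118 kb from its start (chr7:68070001-68071000). An Irs2 tile at chr8:10990001-10991000 had a mean of 23.0%. Whether these places are regulatory elements was not tested.

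**Figure D4:**
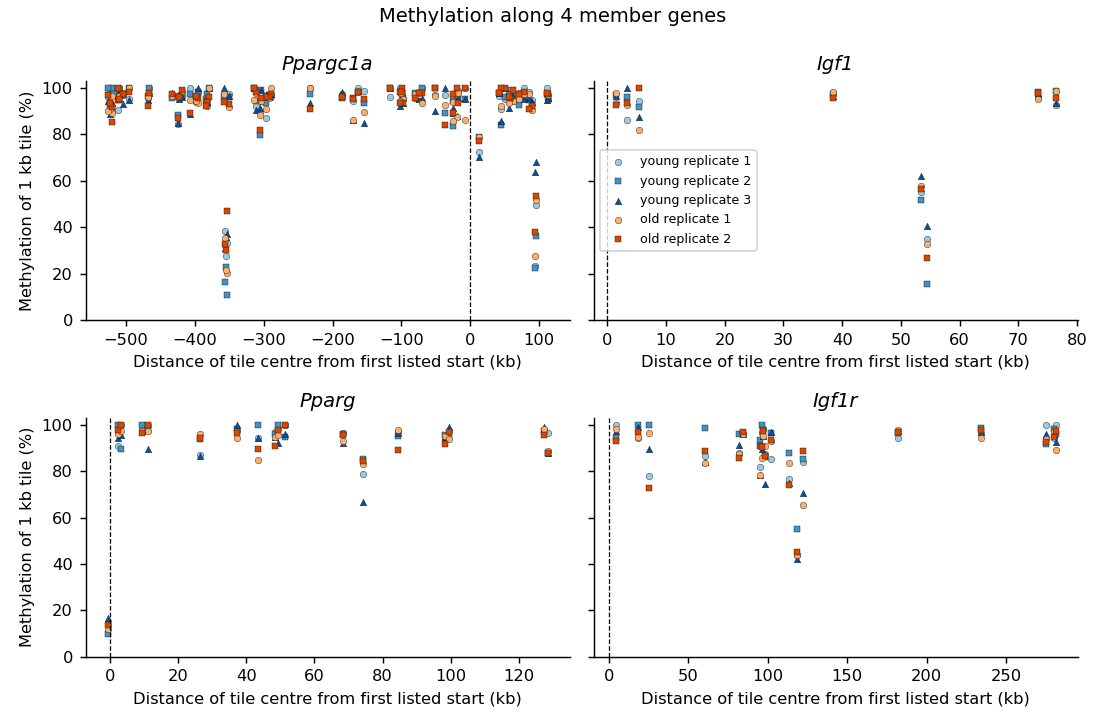
Methylation of 1 kb tiles (y axis, percent) against distance from the first listed start (x axis, kb) in Ppargc1a, Igf1, Pparg and Igf1r, per library. Most tiles lie over 80%; dips stand about 355 kb upstream and 94 kb downstream of the Ppargc1a start, 53 to 54 kb into Igf1 and 118 kb into Igf1r, and at the Pparg start.

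No member tile passed, and 7 of 249 had an unadjusted p under 0.05 (2.81%, against 3.43% of all tiles). In old sperm 116 tiles had a higher mean and 133 a lower one, with a median difference of -0.171 points against 0.152 over all tiles. The ages did not overlap in 22 tiles with old sperm higher (8.82% of all tiles do so) and in 25 with old sperm lower (8.16% of all). The smallest p (adjusted p = 1 in the model with limma-type moderation) was that of a tile past the 3′ end of Irs2 (chr8:10983001-10984000, with the gene at chr8:10984681-11008929), which overlaps the 1 kb flank only in part. It was at 81.6%, 89.9% and 79.1% in young and 94.7% and 91.1% in old sperm, a difference of 9.37 points on 76 to 158 reads. Next among the higher ones were tiles of Ppara (chr15:85759001-85760000, 92.3% and 97.2% in young and old means), Ppargc1a (chr5:51879001-51880000, 92.4% and 97.9%), Cpt1a (chr19:3353001-3354000, 84.4% and 91.8%) and Mtor (chr4:148506001-148507000, 94.4% and 100%). Among the lower ones the smallest p was that of a tile of Acaca (chr11:84138001-84139000, 88.6% and 81.1%). It was followed by tiles of Ppargc1a (chr5:51917001-51918000, 96.8% and 92.4%), Pik3r1 (chr13:101688001-101689000, 100% and 95.4%), Lepr (chr4:101728001-101729000, 98.2% and 94.2%) and Pparg (chr6:115404001-115405000, 96.2% and 87.2%). These tiles were chosen by their p, so their separation is no support. The Acaca difference of -7.58 points, with overlapping ages, was -3.12 without old replicate 2 and -12.04 without old replicate 1. That of Cpt1a, 7.35 points, was 3.81 without young replicate 3. The Lepr difference of -3.98 points was -1.86 without old replicate 2 and -6.09 without old replicate 1.

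Libraries differed most in the intermediate tiles, a class set by the mean of these same libraries. Counting error is also wider at such levels than near the ends of the scale, and its part in the ranges was not tested. The median range of the intermediate tiles between the 5 libraries was 22.2 points, against 6.00 in the member tiles over 80%. Over all tiles of the genome these ranges were 17.7 and 6.25 points. The widest was the Ppargc1a tile at 51474001, from 22.6% in young replicate 2 to 64.0% in young replicate 3, followed by the Ppargc1a tile at 51921001, from 10.8% to 46.8%, and a Sirt1 tile (chr10:63337001-63338000), from 46.2% in old replicate 2 to 78.6% in old replicate 1. Young replicate 2 was the lowest library in 8 of the 22 tiles and the highest in 7, and young replicate 3 was the highest in 7 and the lowest in 7. Over all intermediate tiles young replicate 2 was lowest in 36.4% and highest in 15.3%, and young replicate 3 highest in 36.6% and lowest in 15.03%. In tiles over 80% young replicate 3 was the single lowest in 66 of 224 member tiles (29.5%, against 31.8% of all such tiles).

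**Figure D5:**
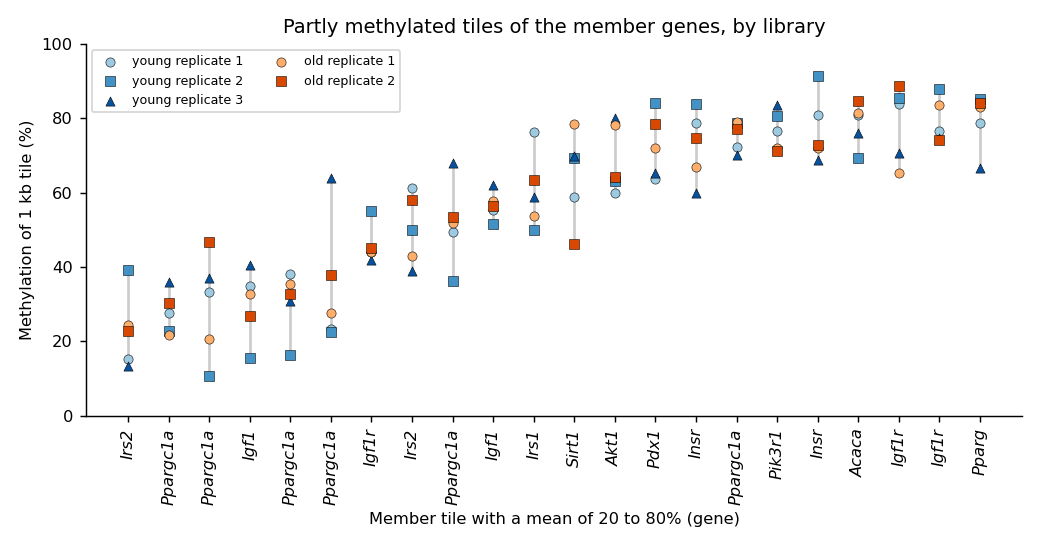
Methylation (y axis, percent) of the 22 member tiles with a mean of 20 to 80%, in order of their mean, per library; grey lines join the lowest and highest library. The median range is 22.2 points, and blue (young) and orange (old) points are interleaved in most tiles.

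Starts chosen to bear on the presence of other cells also differed between libraries. At the first listed starts of maternally imprinted genes, whose control regions are unmethylated in sperm and partly methylated in somatic cells, 7 of 12 genes had reads in every library. The control regions were not located here, and a listed start need not lie in one. Pooled over these 7, methylation was 19.5%, 14.8% and 32.4% in young and 24.7% and 22.7% in old sperm. Most of these reads were of Nnat, with 1630 to 1806 per library, at 14.7%, 9.41% and 24.9% in young and 18.3% and 18.6% in old sperm. Single genes did not share 1 order: young replicate 2 was lowest in 4 of the 7 and young replicate 3 highest in 4. Snrpn was at 67.7%, 84.96% and 73.3% in young and 78.9% and 78.5% in old sperm, and Kcnq1ot1 at 0%, 34.5% and 40.2%, and 27.98% and 23.3%. The other starts with reads in all libraries lay at 74.4 to 90.2% for Snrpn, 12.2 to 64.3% for Mest and 78.9 to 100% for Grb10. None of the 7 was at 0 in every library. First starts of 6 spermatid genes pooled to 12.4 to 24.98%, but most of these reads were of Odf2, a sperm tail gene, at 3.43 to 6.90%. The medians of the 6 genes were 83.0%, 41.8% and 73.2% in young and 68.5% and 70.2% in old sperm. Prm1, for example, was at 93.4 to 98.2%. Those of 4 leukocyte genes pooled to 61.2 to 87.0% and those of 2 genes of the epididymal epithelium to 76.3 to 90.1%. The part of other cells in the intermediate tiles, in Akt1 or in Pdx1 was not tested.

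A list of 99 other genes of the same pathways served for comparison. Of its 74 measured regions 36 had a higher and 38 a lower mean in old sperm, with a median difference of -0.047 points, and 0 passed in the moderated model. Acacb, the mitochondrial counterpart of Acaca, was the only one with an unadjusted p under 0.05 (adjusted p = 1 with limma-type moderation), at 93.6%, 94.9% and 91.9% in young and 87.7% and 92.4% in old sperm. The lowest differences were those of the adaptor Shc1 (-9.18 points), the oxysterol receptor Nr1h3 (-6.74) and the coactivator Crtc2 (-5.53). The highest were those of the lipid kinase subunit Pik3cd (7.25), the fatty acid carrier Fabp4 (3.01) and the beta cell factor Neurod1 (3.01). Of 15 measured starts of 13 listed genes, the second start of Tcf7l2, a Wnt effector, had the lowest difference of old minus young, at 62.5%, 57.9% and 78.1% in young and 51.4% and 52.5% in old sperm (adjusted p = 1 with limma-type moderation).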

How the data were processed

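The authors deposited 1 table per library with, per the file headers, the coverage of each CpG cytosine and strand as a count of reads and the percent of them read as C or T. The lowest listed coverage was 5 reads, so cytosines below it are absent. The submitters' processing notes name mm10 together with Bismark 0.16.3, methylKit 1.4.0 and Trim Galore 0.4.3, and settings and duplicate removal are not given in the sources here. Unconverted cytosines read as methylated. Percent times coverage gave methylated counts, which were summed over strands and over gene regions, start windows (1000 bp either side), bodies and tiles of 1000 bp with at least 3 common CpGs, those with 5 or more reads in each library and outside the top 0.1% of its coverage. Group differences are means over libraries, old minus young. Counts were tested with a quasi-binomial logistic model with dispersion moderated as in limma's squeezeVar and not under 1, adjusted by Benjamini-Hochberg over all features of a kind, and with limma 3.58.1 (R 4.3.3). Scripts ran in Python 3.11.15 with pandas 2.3.3, numpy 2.4.6 and scipy 1.17.1. The test was checked on simulated data. Gene spans and promoter sequences are RefSeq (GRCm38.p6), without exons; 28 of 31 members had a listed start, and no promoter entry matched Ins2, Insr and Slc2a4. Tiles named are the 5 higher and the 5 lower with the smallest p, at most 1 a gene each way, and the 5 intermediate ones with the widest range. The members, the pathway list and the marker lists were chosen with earlier results of these data known.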

Additional observations from a re-analysis of the deposited data

How the results depend on the processing

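Calls of member features stayed at 0 under every alternative that could be run: a binomial model, at least 10 or 20 reads in all libraries, every CpG a library lists, no upper coverage limit, at least 5 common CpGs, a lower or no minimum difference, start windows of 500 bp, tiles of 500 or 2000 bp, limma, and each library left out (0 to 0 calls). Under the binomial model the smallest adjusted p of members was 0.0140 for regions, 0.0186 for bodies and 0.00739 for tiles, so features past that threshold stayed uncalled only by the 10-point minimum, and lower minimums were run with the moderated model alone. Where a single old library remained, its spread was taken from the young group. No member start had 3 CpGs with 20 reads, so that setting gives no value there. Over the genome the binomial model, which ignores the spread between replicates, called 69 regions, 48 start windows, 35 bodies and 700 tiles, and with every listed CpG 1 tile was called. The replicate block gave 0 calls of each kind; the labels say nothing of what a shared number means, and deviations of same-numbered libraries correlated at 0.0095 and -0.020 over 320580 tiles. The median difference of member regions lay between 0.162 (without young replicate 3) and 0.9499 points (without young replicate 2), and that of the 4 start windows between -3.44 and 9.26 points with a library left out. Of the 20 member regions, 4 (Cpt1a, G6pc, Lepr and Pdx1) kept the sign of their difference under every setting run and 16 changed it under at least 1; the cause was not tested. Common CpGs are the well-covered ones, and promoters with many CpGs were mostly out of reach at this depth. Over all promoters 0.581% of CpGs were common in those with 10 or more CpGs, against 4.24% in those with fewer. In members the counts were 19 of 655 CpGs (2.90%) and 0 of 64. Of these 19, 15 were in the promoter of the second Akt1 start and 4 in that of the first Pparg start, so they show no trend of the members. Calls of 0 do not show that the ages are alike. The Pdx1 difference of 10.97 points did not pass, and as the largest of the 20, picked from these data, it is no support for a difference.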
